A study of Homo sapiens with 6 samples.

Results

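The metallothionein genes examined here were 8 in number, and 7 of them are among the 20046 genes that the annotation of a human bead array names. Each was read by 1 probe: MT2A by ILMN_1686664, MT1X by ILMN_1775170, MT1G by ILMN_1715401, MT1F by ILMN_1718766, MT1E by ILMN_2173611, MT1H by ILMN_2124802, MT1M by ILMN_1657435, and MT1A by ILMN_1691156 as the probe was listed. The probes were taken by identifier from the 47231 of the array. The platform's annotation named 7 of the 8 in the same way. It has no entry for ILMN_1691156, so that probe is called by its identifier below. A further 7 probes that the annotation gives to metallothionein genes were read beside them. RNA came from HeyA8, an established human ovarian cancer cell line. The 3 untreated arrays held RNA of parental cells, and the 3 MFH arrays held RNA of parental cells that had received MFH, magnetic fluid hyperthermia, in which magnetic nanoparticles are heated by an alternating field. The comparison asks how expression after MFH differed from that of untreated cells. Particle type, temperature, duration and time of harvest are not given in the sources used here, and nanoparticles alone or a field alone were not analysed here.

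Metallothioneins are small proteins rich in cysteine that bind zinc and copper, and cadmium where it is present. Zinc activates the transcription factor MTF1, which binds metal response elements before the metallothionein genes and the zinc exporter gene SLC30A1. The same genes are known to respond to glucocorticoids, oxidants and, in several cell types, heat. In the RefSeq table of GRCh38.p14 the family forms a run of 16 genes and pseudogenes on chromosome 16, with MT4 and MT3 at one end, then MT2A, and the MT1 genes after it up to MT1X. MT2A and the MT1 genes serve many tissues, whereas MT3 is known chiefly from brain and MT4 from stratified epithelium.

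The sequence before the start of transcription is shown for the 3 members that had a promoter window in the reference used here. They were MT2A, read at the top of the array's range, MT1X, read at a middle level among the 8 probes, and MT1H, read near background. That reference held no window for MT1E, MT1G, MT1F, MT1M or MT1A, so the matches below do not cover these genes. Each run holds the 250 bases before the RefSeq start on GRCh38.p14, plus strand, at chr16:56608334-56608583 for MT2A, chr16:56682220-56682469 for MT1X and chr16:56669564-56669813 for MT1H. Capitals mark the core of the metal response element, searched as TGCACNC or TGCGCNC on both strands.
MT2A: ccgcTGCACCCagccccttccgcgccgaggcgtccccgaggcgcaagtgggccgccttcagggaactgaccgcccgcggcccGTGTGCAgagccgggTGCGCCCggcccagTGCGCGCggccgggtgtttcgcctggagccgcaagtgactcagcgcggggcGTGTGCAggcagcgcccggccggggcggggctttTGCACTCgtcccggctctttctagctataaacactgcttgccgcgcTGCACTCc
MT1X: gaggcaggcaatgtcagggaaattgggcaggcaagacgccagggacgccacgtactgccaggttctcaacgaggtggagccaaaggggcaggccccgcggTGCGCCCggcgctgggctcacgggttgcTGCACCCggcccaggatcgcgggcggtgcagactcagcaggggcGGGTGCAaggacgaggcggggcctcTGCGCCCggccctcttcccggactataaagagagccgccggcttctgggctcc
MT1H: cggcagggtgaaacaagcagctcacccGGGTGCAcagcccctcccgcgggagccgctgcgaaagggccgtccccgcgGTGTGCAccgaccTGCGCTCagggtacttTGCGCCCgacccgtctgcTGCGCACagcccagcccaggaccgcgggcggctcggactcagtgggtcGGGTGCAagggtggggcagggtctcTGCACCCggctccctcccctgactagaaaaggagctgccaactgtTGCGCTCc
Counting only matches that do not overlap each other, MT2A held 7, MT1X held 4 and MT1H held 8. Of 35116 RefSeq promoter windows of this length, 0.208% held 4 or more matches, 0.0228% held 7 or more and 0.0142% held 8 or more. MT1B and MT4, which are not among the 8 probes' genes, each held 3. MT1H, with the most matches, was read near background. The letters of a heat shock element, searched as GAANNTTC or TTCNNGAA, were in none of the 5 windows, and 11.6% of all windows held them. The antioxidant response letters TGACNNNGC on either strand were present once each in MT2A, MT1X and MT1B, and in 10.9% of all windows. A match of letters is a description and not a binding site, and no match says only that these letters are not in this window.

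**Figure D1:**
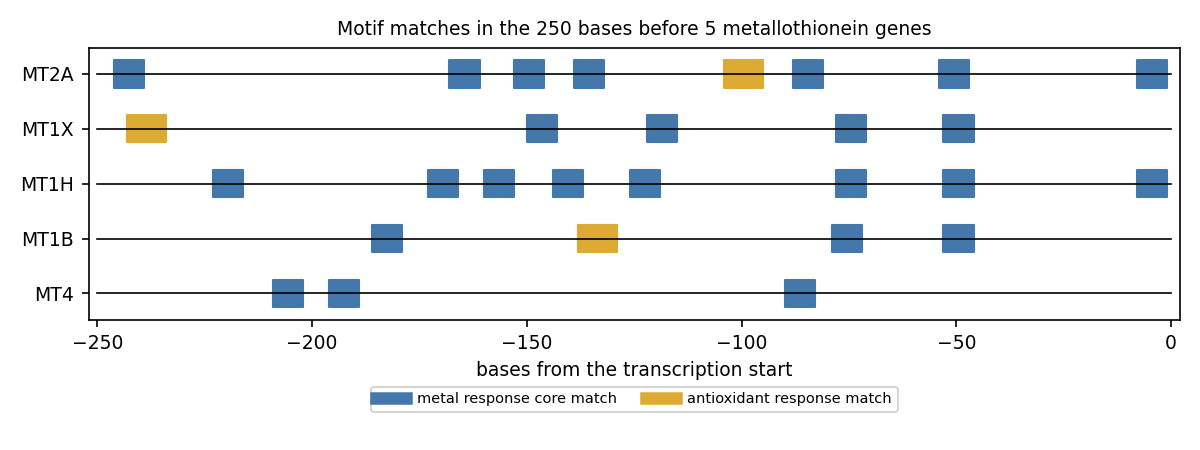
Matches to the metal response core (blue) and to the antioxidant response letters (yellow) along the 250 bases before 5 metallothionein genes, with the distance from the transcription start in bases on the x axis. MT2A carries 7 and MT1H 8 blue boxes, MT1X 4, and MT1B and MT4 carry 3 each.

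The median raw intensity was 103 to 114 on untreated arrays and 102 to 127 on MFH arrays. A probe was called above background where it exceeded the mode of its array's intensities by 2 SD, and this held for 45.2% to 47.5% of probes. Values were background-corrected, quantile normalised and put on the log2 scale. The brighter 23615 of the probes, by their mean over the 6 arrays, entered the limma fit. Of these, 1347 (5.70%) were higher and 1555 (6.58%) lower after MFH at an adjusted p under 0.05. In bulk RNA a change in the number of cells that express a gene cannot be told apart from a change of RNA per cell.

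After MFH the metallothionein probes were at most slightly brighter. MT1E was 1.38-fold and MT1G 1.28-fold higher, and both passed the test. MT1X and MT1F were 1.24-fold and 1.26-fold higher in the same fit and missed it. MT2A and ILMN_1691156, among the brightest probes of the array, differed by less than the spread between arrays. MT1H and MT1M were at or near background. Of the 8 probes 6 were tested: 2 were called higher and 0 lower, beside 5.70% and 6.58% of all tested probes. At an unadjusted limma p under 0.05, 4 of the 6 were higher and 0 lower, beside 11.3% and 13.1% of all tested probes. The median log2 change was 0.32 over the 6 tested probes and -0.0087 over all tested probes. Over all 8 it was 0.25, a value that takes in the near-background readings of MT1H and MT1M. The 2 calls were not firm: leaving out any one of the 6 arrays left 0 or 1 call, and with an offset of 16 in the background correction, or with median scaling, there were 0.

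**Figure D2:**
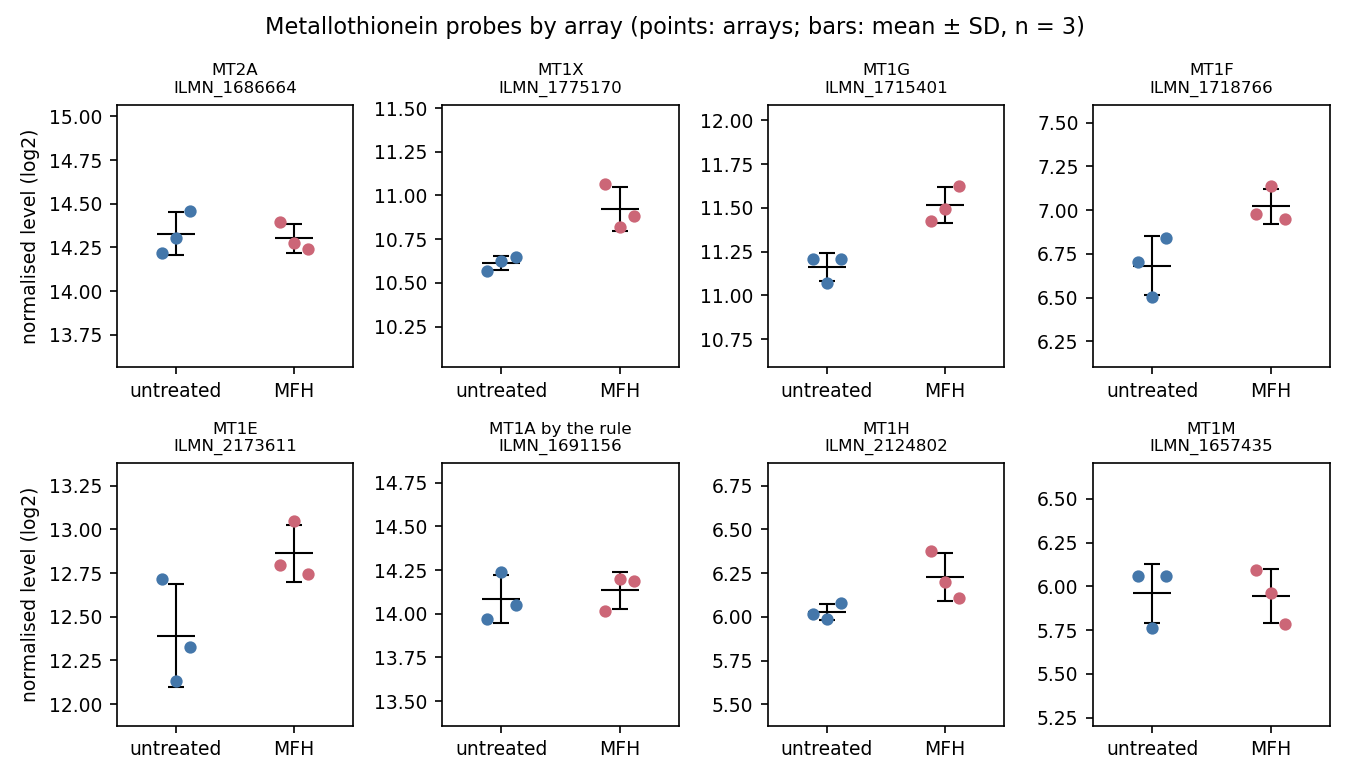
Normalised log2 level (y axis) of the 8 probes on each untreated (blue) and MFH (red) array, with points for arrays and bars for the mean ± SD (n = 3). Every panel spans the same height on the log2 scale. The MFH points of MT1X, MT1G, MT1F, MT1E and MT1H lie above all untreated points, and those of MT2A, ILMN_1691156 and MT1M overlap them.

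MT1E encodes one of the widely expressed metallothionein-1 isoforms. Its probe ILMN_2173611 read 7173, 3684 and 5247 on the 3 untreated arrays and 9031, 7664 and 7170 on the MFH arrays. These raw values overlapped, since untreated replicate 1 was brighter than MFH replicate 3 by a small margin. After normalisation the untreated levels were 12.72, 12.13 and 12.33 (log2) and the MFH levels 12.79, 13.05 and 12.75. The groups then no longer overlapped, but untreated replicate 1 lay just under the MFH arrays. The log2 change was 0.47 ± 0.14 (SE), with a 95% interval of 1.13-fold to 1.70-fold (limma adjusted p = 0.041). The scatter between replicates was large: the pooled SD was 0.239, above that of 94.0% of tested probes. Without untreated replicate 1 the change was 0.63 (limma adjusted p = 0.0077), and without untreated replicate 2 it was 0.34 (limma adjusted p = 0.16). The call was also lost without untreated replicate 3, MFH replicate 1 or MFH replicate 2, at limma adjusted p-values of 0.069 to 0.17, and with array weights (0.0502).

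A second probe annotated to MT1E, ILMN_1718968, gave no such reading. It lay between 87.7 and 126 on untreated arrays and between 101 and 132 on MFH arrays, above background on 2 arrays of each group. Its log2 change was 0.08 ± 0.14 (SE, limma adjusted p = 0.80). The 2 probes of this gene thus disagreed in brightness and in the test. The members of the family are close in sequence, and whether a probe also takes signal from relatives of its gene was not tested.

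MT1G, another metallothionein-1 isoform, showed a similar rise with less scatter. Its raw intensity was 2612, 1814 and 2452 on untreated arrays and 3461, 2562 and 3247 on MFH arrays. The raw groups overlapped only in that MFH replicate 2 fell just below untreated replicate 1. Normalised levels were 11.21, 11.07 and 11.21 in untreated cells and 11.43, 11.49 and 11.63 after MFH, without overlap. The log2 change was 0.35 ± 0.10 (SE), with a 95% interval of 1.10-fold to 1.49-fold (limma adjusted p = 0.035). Leaving out any single array except MFH replicate 1 took the adjusted p of MT1G above 0.05, up to 0.12.

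MT1X had the tightest untreated levels of the 8 probes together with MT1H. Raw readings were 1691, 1353 and 1667 on untreated arrays and 2723, 1595 and 1930 on MFH arrays. MFH replicate 2 overlapped the untreated range here. After normalisation the levels were 10.57, 10.62 and 10.65 against 11.06, 10.82 and 10.88, so all MFH arrays were higher. The log2 change of 0.31 ± 0.10 (SE) had a 95% interval of 1.06-fold to 1.44-fold and missed the threshold (limma adjusted p = 0.066). It passed with no background correction, with cyclic loess, with trend and robust eBayes and with the series' deposited normalised values, at limma adjusted p-values of 0.037 to 0.049.

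MT1F was dim but measured on all 6 arrays. Raw intensities were 144, 113 and 152 on untreated arrays and 189, 155 and 172 on MFH arrays. All 3 MFH values exceeded all 3 untreated values in the raw data as well as after normalisation. Normalised levels were 6.70, 6.50 and 6.84 in untreated cells and 6.98, 7.14 and 6.95 after MFH. The log2 change was 0.34 ± 0.11 (SE), with a 95% interval of 1.07-fold to 1.49-fold (limma adjusted p = 0.064). With an offset of 16 in place of 50 the log2 change was 0.48, and MT1F missed the threshold in every alternative tried (limma adjusted p = 0.053 to 0.23).

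**Figure D3:**
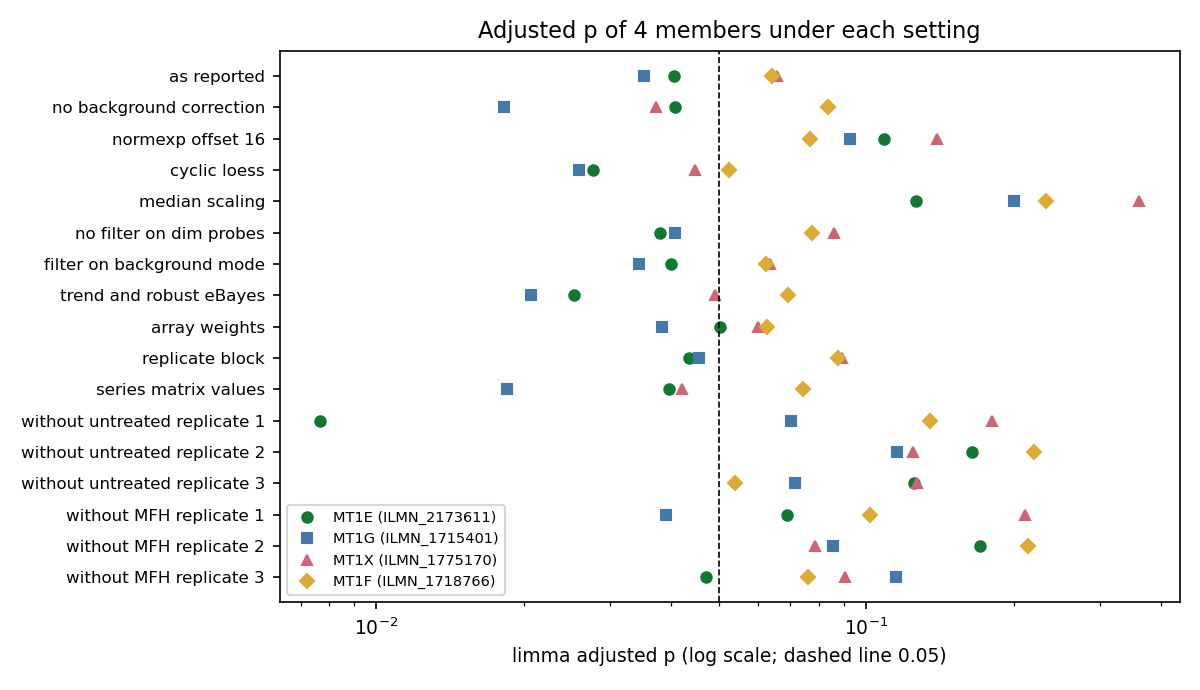
Limma adjusted p (x axis, log scale) of MT1E, MT1G, MT1X and MT1F as reported and under 16 alternatives (rows), with a dashed line at 0.05. MT1G and MT1E move to the right of the line with an offset of 16 and with median scaling, MT1X crosses to its left in 4 rows, and MT1F stays to its right.

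Among the 6 tested probes, MT1X, MT1G, MT1F and MT1E had all 3 MFH levels above all 3 untreated levels on the normalised scale. Over all tested probes this was so for 12.8%, and the reverse for 15.8%.

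MT2A, the most abundant human isoform in many cell types, was near the ceiling of the readings. Raw intensity was 18823, 17335 and 22907 on untreated arrays and 22681, 19180 and 21750 on MFH arrays. It was the brightest of all 47231 probes on untreated replicate 3 and ranked between 6 and 80 on the others. Its reading was 81.5% to 100% of the brightest probe on the same array. Normalised levels were 14.22, 14.30 and 14.46 in untreated cells and 14.40, 14.27 and 14.24 after MFH, and the groups overlapped. The log2 change was -0.03 ± 0.10 (SE), with a 95% interval of 0.842-fold to 1.15-fold (limma adjusted p = 0.93).

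ILMN_1691156 was almost as bright. It read 16208, 16465 and 17371 on untreated arrays and 18416, 18327 and 21024 on MFH arrays, so all raw MFH values were higher. After normalisation the levels were 13.97, 14.24 and 14.05 against 14.01, 14.20 and 14.19 and overlapped. The log2 change was 0.05 ± 0.11 (SE), with a 95% interval of 0.880-fold to 1.21-fold (limma adjusted p = 0.85). With median scaling, which does not tie a level to its rank, the log2 change was 0.16 for ILMN_1691156 and 0.07 for MT2A, at limma adjusted p-values of 0.67 and 0.90.

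The brightest probes were read close together. After quantile normalisation the step from the brightest probe to the probe ranked 100 was 0.266 on the log2 scale. Of the 197 probes whose mean untreated intensity was at or above that of ILMN_1691156, 0 were called in either direction in limma, and at an unadjusted p under 0.05 there were 0 higher and 1 lower. The highest measured change among these 197 was 1.13-fold. MT2A and ILMN_1691156 are themselves in this set. Whether so small a step between levels limited the measured changes was not tested. The 0 calls do not show that RNA was unchanged. This set of bright probes was drawn up after the data were seen, and whether the readings were limited by the range of the scanner was not tested.

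MT1H and MT1M gave no usable reading in untreated cells. MT1H read 102, 91.3 and 103 on untreated arrays and 135, 99.2 and 115 on MFH arrays, and only MFH replicate 1 was above background. MT1M read 103, 83.0 and 102 against 117, 89.4 and 99.8 and was above background on none of the 6 arrays. Neither was among the tested probes, and no fold change is given for them. With all 47231 probes tested, where 2.79% were called higher and 3.15% lower, MT1H had a limma adjusted p of 0.38 and MT1M one of 0.98. The second MT1H probe, ILMN_1683923, lay between 83.0 and 115 and was above background on no array.

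The remaining metallothionein probes were near background as well. Of all 7 added probes, 2 were tested and 0 called in either direction in limma, with 0 at an unadjusted p under 0.05. The probe of the pseudogene MT1L was above background on 2 untreated arrays and on none after MFH, at 112 to 119 and 99.4 to 123 in raw intensity. MT1B and MT4 probes were above background on no array, nor was the probe of MT3. The probe of the pseudogene MT1IP exceeded background on 1 MFH array.

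**Figure D4:**
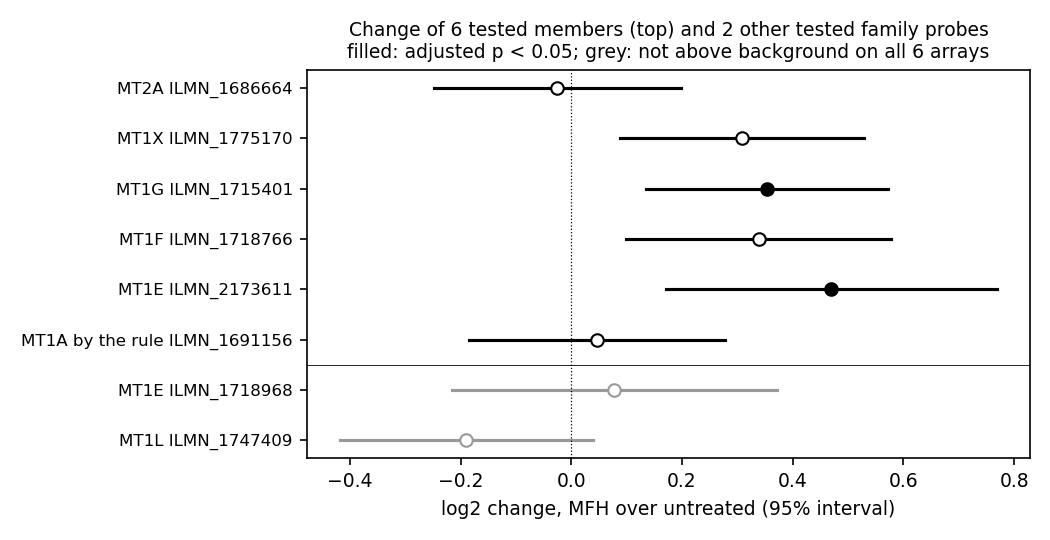
Log2 change (MFH over untreated, x axis) with its 95% interval for the 6 tested probes among the 8 (above the line) and the 2 tested among the other metallothionein probes (below it). Filled points had a limma adjusted p under 0.05, which held for MT1G and MT1E, and grey marks probes that were not above background on all 6 arrays.

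The reading of each member was also set against that of MT2A within each array, as the log2 difference of the 2 probes. MT2A was read near the top of the range, and whether this limited its change was not tested. Its own measured change was -0.03. The differences therefore lie close to each member's own change and do not show that MT2A RNA changed less. The difference was higher after MFH by 0.33 for MT1X, 0.38 for MT1G, 0.36 for MT1F and 0.49 for MT1E. For MT1X, MT1G and MT1F all MFH differences were above all untreated ones, which gave the smallest p that 20 assignments of 6 arrays allow (exact two-sided permutation p = 0.1, adjusted over 7 pairs 0.175). MT1E had a p of 0.2 (exact two-sided permutation, adjusted 0.28). For ILMN_1691156 the difference was 0.07 (exact two-sided permutation p = 0.6, adjusted 0.7). MT1H, although read near background, reached the same p as MT1X, MT1G and MT1F (exact two-sided permutation p = 0.1, adjusted 0.175). MT1M, also near background, did not.

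The lists of genes that handle metals held few tested probes, and their counts stand beside 5.70% higher and 6.58% lower calls over all tested probes. The list of zinc transporters and the metal sensor had 20 genes in the test, of which 1 was higher and 0 lower. That gene was SLC39A6, a zinc importer, at 1.54-fold (probe ILMN_1750394, log2 change 0.63 ± 0.11 SE, limma adjusted p = 0.0012) and 1.48-fold (ILMN_2143566, limma adjusted p = 0.0027). Of the 30 tested probes of the list 2 were higher, and their median change was 0.04 (log2). MTF1 and SLC30A1, chosen for their place in the pathway and outside the rule for naming genes, did not pass. MTF1 read 883, 654 and 783 on untreated and 1132, 730 and 1063 on MFH arrays, with a log2 change of 0.28 ± 0.11 (SE, limma adjusted p = 0.12). The 2 SLC30A1 probes had log2 changes of 0.21 and 0.22 (limma adjusted p = 0.27 and 0.19). For MTF1 and for SLC30A1 probe ILMN_2067852 all normalised MFH levels exceeded the untreated ones, and for SLC30A1 probe ILMN_1745021 the groups overlapped. Over all tested probes all MFH levels were higher for 12.8% and lower for 15.8%.

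Of 14 tested copper genes 1 was called higher and 2 lower, each by 1 probe. The median change over 17 tested probes was -0.07 (log2). SCO2, a copper chaperone of cytochrome c oxidase assembly, fell from 687 ± 32 to 377 ± 31 in raw intensity (SD, n = 3 each), to 0.508 of its untreated level (limma adjusted p = 0.00013). SLC31A2, a copper transporter, fell to 0.689 of its untreated level (limma adjusted p = 0.0053). ATP7A, the copper-exporting ATPase, was above background on no untreated array and on all MFH arrays, and was called higher (limma adjusted p = 0.030). Its mean normalised level was 6.10 on untreated and 6.46 on MFH arrays (log2). It thus passed the filter on level only through the MFH arrays, and its call is not independent of that filter. Its log2 change ran from 0.24 to 0.64 over the alternatives, so no single fold is given. The call of ATP7A was lost in 8 alternatives, among them median scaling and no background correction.

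Of 12 tested iron genes 0 were called higher and 2 lower in limma, with a median of -0.06 (log2) over 19 probes. Both that fell carry iron into mitochondria, SLC25A28 to 0.642 (limma adjusted p = 0.0034) and SLC25A37 to 0.732 (limma adjusted p = 0.027). The call of SLC25A37 was lost in 6 of 16 alternatives. The 2 probes of FTL, ferritin light chain, stood at 18370 and 19833 in untreated cells, in the same range as MT2A, with log2 changes of 0.06 and -0.05. FTL was chosen for naming after its values were seen.

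Lists of other pathways that are known to act on metallothionein genes were read in the same fit, beside the same shares of all tested probes. Of 20 tested NRF2 target genes 0 were higher and 1 was lower, NQO1, to 0.662 at probe ILMN_1720282 (limma adjusted p = 0.0010). A second NQO1 probe, ILMN_2354953, named after its value was seen, was at 0.844 (limma adjusted p = 0.30). Of 10 tested glucocorticoid receptor targets 0 were higher and 2 lower, namely SGK1, to between 0.580 and 0.598 over 3 probes, and FKBP5, to 0.685 (highest limma adjusted p = 0.0025). Of 22 tested heat shock genes 19 were higher and 0 lower, with a median log2 change of 1.38 over 32 probes. That list holds the mitochondrial chaperonins HSPD1 and HSPE1, and without them 17 of 20 genes were higher, with a median of 1.35 over 27 probes. HSPB8, counted as higher and named after its values were seen, was above background on no untreated array and on all MFH arrays. HSPA6, an inducible HSP70, was 56.0-fold higher at probe ILMN_1806165 and 32.8-fold at ILMN_1658383. DNAJB1, a co-chaperone of HSP70, rose from 2398, 2079 and 2182 to 19156, 20101 and 23450 in raw intensity, 8.79-fold after normalisation. The MFH readings of DNAJB1 reached the range in which MT2A was read. CRYAB, a small heat shock protein, read 118, 99.4 and 110 on untreated arrays, of which 1 was above background, and 2367, 1937 and 1395 on MFH arrays (limma adjusted p = 5.75e-11). Its log2 change ran from 3.87 to 5.37 over the alternatives, so no single fold is given. On the same arrays the highest metallothionein change was 1.38-fold.

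**Figure D5:**
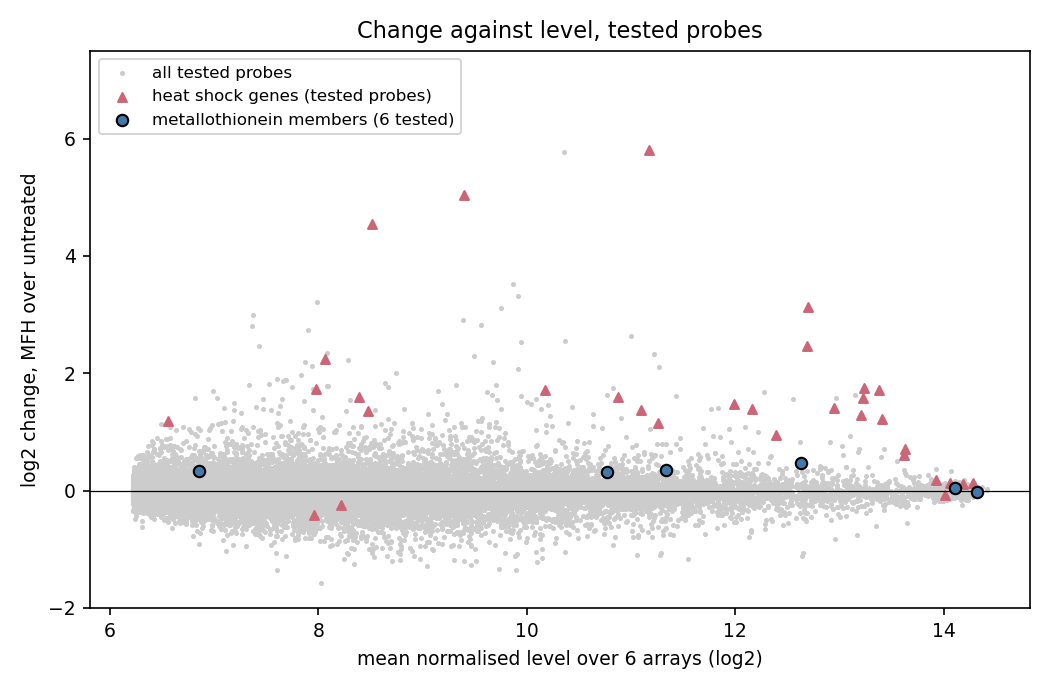
Log2 change after MFH (y axis) against mean normalised level over 6 arrays (x axis) for all 23615 tested probes (grey), tested probes of heat shock genes (red triangles) and the 6 tested metallothionein probes (blue). The blue points lie between -0.03 and 0.47, the red ones reach 5.81, and all points narrow towards 0 at the right end of the range.

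The genes whose profile was most like that of the metallothioneins were sought among all other tested probes. Likeness was the root mean square difference, over the 6 arrays, from the median profile of the 6 members above background on all MFH arrays, each centred on its untreated mean. That profile stood at 0.27 to 0.28 (log2) on the 3 MFH arrays. It lay below the changes of MT1X, MT1F, MT1G and MT1E (0.31 to 0.47). It lay above those of MT2A and ILMN_1691156 (-0.03 and 0.05), and so described no single tested member. The 6 nearest were probes of TIMP2, an inhibitor of metalloproteinases, PLOD2, a lysyl hydroxylase of collagen, CPVL, a carboxypeptidase, and CSNK1A1, a casein kinase, and probes ILMN_1799069 and ILMN_2210601, which the annotation does not list. Their differences ran from 0.014 to 0.035 (log2). Only CSNK1A1 among the 6 passed the test, at a log2 change of 0.31 ± 0.10 (SE, limma adjusted p = 0.047), and it lost the call in 11 of 16 alternatives.

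Markers of the labelled cell type and of others were read on the same arrays. Their calls stand beside 5.70% higher and 6.58% lower calls over all tested probes. Of 10 epithelial and ovarian carcinoma markers 8 were above background on all 6 arrays, KRT8 and PAX8 among them. CDH1 was above it on none. All 6 mesenchymal markers were above background on all arrays. Of their 10 probes 3 were called, beside 12.3% of all tested probes called in either direction. SNAI2, a transcription factor of mesenchymal cells, was 1.93-fold and 1.49-fold higher at its 2 probes (limma adjusted p = 0.00017 and 0.022), and TWIST1, another, fell to 0.620 (limma adjusted p = 0.0020). The summed intensity of that list was 33524 to 39089 in untreated and 36514 to 45002 in MFH cells. Of the 13 tested probes of the epithelial list 3 were lower after MFH (of PAX8 and KRT8) and 0 higher. The list's summed background-subtracted intensity was 5609 to 7062 in untreated and 4660 to 6299 in MFH cells. Of 7 fibroblast markers 1, COL1A1, was above background on all 6 arrays and was called higher (log2 change 0.35, limma adjusted p = 0.036). PDGFRA, PDGFRB and COL3A1 were above it on none, and the list's summed intensity was 50.9 to 66.6 against 88.1 to 127. Of 8 leukocyte markers with a probe, CD3D and CD3E were above background on no array, and the list, of which CD68 was the only one above background on all arrays, had 0 calls in limma (summed intensity 2227 to 3013 against 2668 to 4171). ITGAM was above background on no untreated array and on all 3 MFH arrays, at 114, 95.2 and 107 against 336, 110 and 131, and missed the threshold (limma adjusted p = 0.11). CD14 probe ILMN_2396444 read 116, 91.5 and 122 against 222, 125 and 133, above background on 2 untreated and 3 MFH arrays (limma adjusted p = 0.054). For ITGAM and CD14 MFH replicate 1 was the highest array. Endothelial markers had 0 calls (116 to 194 against 107 to 285). SNAI2, TWIST1, ITGAM and CD14 were named after their values were seen. The part of these differences in the metallothionein values was not tested.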

How the data were processed

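RNA of 3 untreated and 3 MFH-treated HeyA8 samples was read on 1 bead array each. The authors deposited non-normalized probe intensities on a linear scale, exported with BeadStudio per the submitters' processing notes, its version not given in the sources used here. The lowest intensity of an array was 71.8 to 89.6, so no background had been subtracted. The authors also deposited a table of log2 values with the same quantiles in every column (median 6.73), whose normalization is not stated. Each of its columns follows the raw values of its own array (Spearman 1.00), so scale and direction are settled, and it served as an alternative.

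Background was corrected with normexp (offset 50) and arrays were quantile normalised in limma 3.58.1 under R 4.3.3. Probes above the median level (23615 of 47231) were fitted with lmFit and eBayes on group, with Benjamini-Hochberg adjustment over all of them. The method was tested on simulated data, with changes larger than those reported for the metallothionein probes and on probes brighter than MT1F. That test does not cover changes as small as those of the metallothionein probes. Alternatives changed the background correction, the normalisation, the filter, the variance model, array weights, a replicate block and the arrays included. The threshold for a probe above background (mode plus 2 SD of the values below it) was set after the intensities were seen. Gene names came from the platform annotation, which gave 1 symbol to 30113 probes, several to 8 and none listed to 17110. Members and gene lists were chosen with earlier results of these data known. The text names the 8 members, every other metallothionein probe, at most 4 called probes with the largest change per list, and the 6 probes nearest in profile. Marker lists covered epithelial, mesenchymal, fibroblast, leukocyte and endothelial cells. Whether the replicates were separate cultures is not given in the labels. A p-value here therefore rests on how far the 3 arrays of a group vary, and that variation may be technical. In eBayes the variance of each probe was also drawn towards that of all tested probes. This made the SE of MT1E, whose scatter was large, smaller than its own arrays alone would give. The number of arrays limits the precision. No batch is named in the labels.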

Additional observations from a re-analysis of the deposited data

How the results depend on the processing

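Of the 8 metallothionein probes 0 were called lower under any alternative, and 0 to 3 were called higher. Median scaling gave 1030 calls over all tested probes (549 higher, 481 lower) against 2902, and 0 metallothionein calls, with log2 changes of 0.40 for MT1G and 0.57 for MT1E (limma adjusted p = 0.20 and 0.13). An offset of 16 gave 0 as well, with 0.36 for MT1G, 0.47 for MT1E and a median of 0.34 over the 8 probes. Array weights gave 1, which was MT1G at 0.33 (limma adjusted p = 0.038), while MT1E at 0.43 missed the threshold (limma adjusted p = 0.0502). The count was 3 where MT1X passed: with no background correction (0.30), cyclic loess (0.34), trend and robust eBayes (0.31) and the deposited log2 values (0.29). The median of the 8 probes, which takes in the near-background MT1H and MT1M, was 0.19 with no background correction and 0.20 with the deposited values. The median of the 6 tested probes lay between 0.28 and 0.35 in all 16 alternatives. Leaving out 1 array at a time gave 0 to 1 metallothionein calls, 1021 to 1398 lower calls over all tested probes, a median of 0.18 to 0.27 over the 8 probes, 0.29 to 0.40 for MT1G and 0.34 to 0.63 for MT1E. The lowest count of lower calls came without untreated replicate 3, and the lowest median without MFH replicate 1. The cause of these shifts was not tested. MT2A, ILMN_1691156 and MT1F kept their side of the threshold in all 16 alternatives.

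Same-numbered arrays of the 2 groups had deviations that correlated at 0.0039, 0.060 and -0.036, so the numbers were not taken as pairs. With the replicate number as a block there were 2870 calls over all tested probes, and MT1G and MT1E were again the 2 metallothionein calls (limma adjusted p = 0.045 and 0.044). Signal over background limits MT1H and MT1M, for which no fold is given. MT2A and ILMN_1691156 were read near the top of the intensity range, and whether this limited their change was not tested.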
